A study of Mus musculus with 4 samples.

Results

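Vim, Tmsb10, Sprr1a and Rtn4 were taken by name from an RT-PCR array for mouse nephrotoxicity, and they are 4 of its 84 genes beside the reference gene Actb. They were grouped as structural genes and genes of injured, regenerating epithelium, and they were selected on measured values, namely their Ct relative to Actb in these same 4 samples, so every number on them is a description. The array was run on RNA of MCT cells, an established mouse kidney epithelial line whose labels give the convoluted tubule as its origin, grown in DMEM with FBS. There was 1 sample for each of 4 conditions: untreated cells, cells given CsA at 10 μg/ml, cells given SB203580 at 10 μM, and cells given 11R (11R-VIVIT) at 1 μM. The study's general methods give 1 day of exposure for these doses. CsA (cyclosporine A) blocks the phosphatase calcineurin, SB203580 blocks the kinase p38 MAPK, and 11R-VIVIT is a cell-permeable peptide that keeps calcineurin from binding the transcription factor NFAT. The labels describe the control as having no treatment, so a compound and its solvent cannot be told apart.

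Vimentin, the product of Vim, builds intermediate filaments in mesenchymal cells, and tubule cells that lose their differentiated form after injury are known to express it. Thymosin beta-10, from Tmsb10, binds actin monomers and so belongs to the actin cytoskeleton. Sprr1a encodes a small proline-rich protein that is crosslinked into the envelope of squamous epithelial cells and is also known from neurons that regrow their axons. Rtn4 encodes the reticulon Nogo, a membrane protein that shapes tubules of the endoplasmic reticulum, of which 1 isoform is known for holding back axon growth.

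The promoters are shown because the levels of Vim and Sprr1a ran closer together over the 4 samples than those of any other pair among the 4 genes, while Rtn4 reached a like change with CsA. This choice rests on the same 4 single samples, and a link between motifs and levels was not tested. Each stretch holds the 250 bases before an annotated start, from RefSeq on GRCm38.p6. All 4 symbols matched the promoter table, with 1 start each for Vim and Sprr1a and 3 each for Tmsb10 and Rtn4. The Vim stretch is chr2:13574061-13574310 on the plus strand, that of Sprr1a is chr3:92485882-92486131 on the minus strand, and that of the first Rtn4 start is chr11:29692648-29692897 on the plus strand. Capitals mark matches, on either strand, to TGANTCA (the AP-1 site), TGACGTCA (the cyclic AMP response element), GGAAA (the core of NFAT sites), GGGCGG (the GC box) and TATAAA (the TATA box).
Vim: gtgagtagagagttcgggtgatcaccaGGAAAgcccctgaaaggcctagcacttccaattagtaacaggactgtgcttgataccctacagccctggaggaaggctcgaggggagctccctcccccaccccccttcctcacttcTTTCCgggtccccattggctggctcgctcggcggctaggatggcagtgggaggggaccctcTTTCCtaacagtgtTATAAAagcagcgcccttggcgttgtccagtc
Sprr1a: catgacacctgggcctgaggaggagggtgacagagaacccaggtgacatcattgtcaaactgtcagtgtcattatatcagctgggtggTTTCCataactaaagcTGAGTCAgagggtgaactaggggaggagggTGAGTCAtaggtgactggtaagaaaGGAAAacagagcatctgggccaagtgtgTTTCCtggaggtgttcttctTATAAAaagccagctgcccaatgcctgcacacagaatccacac
Rtn4: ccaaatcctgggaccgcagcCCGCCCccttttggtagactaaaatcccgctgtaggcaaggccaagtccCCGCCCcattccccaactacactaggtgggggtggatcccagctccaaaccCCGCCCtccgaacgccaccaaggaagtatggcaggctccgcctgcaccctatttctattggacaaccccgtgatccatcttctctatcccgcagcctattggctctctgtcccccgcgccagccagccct

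In these windows Vim and Sprr1a each held 1 TATA box match and 3 matches to the NFAT core, with the TATA box starting 32 bases before the Vim start and 43 bases before that of Sprr1a. Sprr1a alone of the 4 genes held AP-1 matches, at 146 and 116 bases before its start. The first Rtn4 window held 3 GC box matches and the second held 1, while the third held none of the motifs. The Tmsb10 windows held 1, 1 and 2 GC box matches, and 1 of them held an NFAT core match. None of the windows of the 4 genes held the cyclic AMP response element. Of all 32851 promoter windows of this length, 6.75% held at least 1 match to the AP-1 motif and 1.55% to the cyclic AMP response element. At least 1 match to the NFAT core was held by 55.6%, to the GC box by 32.7% and to the TATA box by 12.4%. The share of windows with 3 NFAT core matches was not counted. No matches overlapped each other in the windows of the 4 genes. The motifs describe these letters, and the array measured no binding. Which start or isoform the array's primers detect is not given in the sources used here.

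The array gave 1 Ct per gene and sample, the amplification cycle in which the dye signal first passes a set level, so a lower Ct means more template. The Ct of Actb was between 17.81 and 18.13 in the 4 samples, and 69 of the 84 genes had a Ct under 35, the limit used for detection, in all of them. All 4 genes described here were detected in every sample. Of 10 genes listed as proximal tubule markers 3 are on the array, Slc22a6, Gatm and Havcr1, with an untreated Ct of 33.03, 32.83 and 31.00. Havcr1 is a marker of tubule injury, so its level does not speak for tubule identity. Of 5 distal tubule markers 2 are on the array, Egf with an untreated Ct of 28.95 and Calb1, which at 36.08 was not detected. Of 4 fibroblast markers only Mgp is on the array, with a Ct from 34.06 to 34.97, and of 5 leukocyte markers only Ctss and Ccl3, with a Ct from 32.24 to 34.36. Mgp was 0.16 higher in the CsA sample, 0.28 in the SB203580 sample and 0.93 in the 11R-VIVIT sample on the log2 scale relative to Actb. Of the leukocyte markers, Ctss (the protease cathepsin S) was past 2-fold higher in all 3 treated samples, at 1.36 in the CsA sample, 1.25 in the SB203580 sample and 1.35 in the 11R-VIVIT sample. These 3 changes share a single untreated Ct of 34.36, close to the limit of 35. Ccl3 stood at -0.19, 0.88 and 0.41 in the same order, and the part of other cells in the results was not tested.

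The Ct of Vim was 23.19 untreated, and it was 23.21 in the 11R-VIVIT sample, 22.07 in the SB203580 sample and 20.45 in the CsA sample. In this order, Vim crossed 5.07, 5.08, 4.25 and 2.61 cycles after Actb. Vim was thus highest with CsA and next with SB203580, and the untreated and 11R-VIVIT samples lay together. The log2 change, which is the Ct relative to Actb in untreated cells minus that in treated cells, came, with a doubling per cycle, to 2.47 for CsA (5.52-fold) and 0.82 for SB203580 (1.76-fold), and for 11R-VIVIT it was -0.0041. With no reference gene the SB203580 value of Vim passed 2-fold, at 1.13. The 11R-VIVIT value was 0.079 relative to the array median, the median Ct of the 65 other array genes that every sample detected, so it has no settled sign. In RNA of a whole culture, more cells with a high level and more RNA in each cell cannot be told apart.

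Tmsb10 was the earliest of the 4 genes to amplify, with a Ct of 19.57 untreated, 19.85 in the 11R-VIVIT sample, 19.20 in the SB203580 sample and 18.28 in the CsA sample. Its distance to Actb was 1.46, 1.72, 1.39 and 0.44 cycles in the same order. The CsA sample was thus the highest, and the other samples lay within 0.34 cycles of each other. The log2 change was -0.27 for 11R-VIVIT and 0.071 for SB203580, against 1.02 for CsA (2.02-fold). The CsA value passed 2-fold narrowly, and it was 0.57 relative to the array median, 0.82 relative to the mean of 19 early genes, those that crossed before cycle 25 in every sample, and 0.94 if a cycle multiplies the product by 1.9 in place of 2. Relative to the array median the SB203580 value was -0.037. Tmsb10, Vim and the reference Actb itself are the only genes on the array among 13 cytoskeletal genes listed. The RNA of an actin-binding protein was thus measured against the RNA of an actin.

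Sprr1a was the latest of the 4 genes, with a Ct of 32.03 untreated, 31.95 in the 11R-VIVIT sample, 30.60 in the SB203580 sample and 29.38 in the CsA sample. It followed Actb by 13.91, 13.82, 12.79 and 11.54 cycles. As for Vim, CsA gave the highest level and SB203580 the next, with the other samples close together. Its log2 change came to 2.38 for CsA (5.19-fold) and 1.12 for SB203580 (2.18-fold), and for 11R-VIVIT it was 0.094. A Ct this late carries more counting error than that of an abundant RNA. If detection is put at 32 cycles, the untreated Sprr1a sample counts as not detected, and the changes become lower bounds of 2.35 for CsA and 1.09 for SB203580. The 11R-VIVIT value was -0.021 relative to the mean of early genes, which include Mt1a, itself at 5.05 with 11R-VIVIT relative to Actb.

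The Ct of Rtn4 was 26.43 untreated, 25.73 in the 11R-VIVIT sample, 24.91 in the SB203580 sample and 23.84 in the CsA sample. It followed Actb by 8.32, 7.60, 7.10 and 5.999 cycles. All 3 treated samples lay above the untreated sample, in steps of 0.71 to 11R-VIVIT, a further 0.50 to SB203580 and a further 1.10 to CsA. Its log2 change came to 0.71 for 11R-VIVIT (1.64-fold), 1.21 for SB203580 (2.32-fold) and 2.32 for CsA (4.98-fold). Over all settings tried, the 11R-VIVIT value of Rtn4 lay between 0.60 and 0.80, above 0 and under 2-fold throughout.

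**Figure D1:**
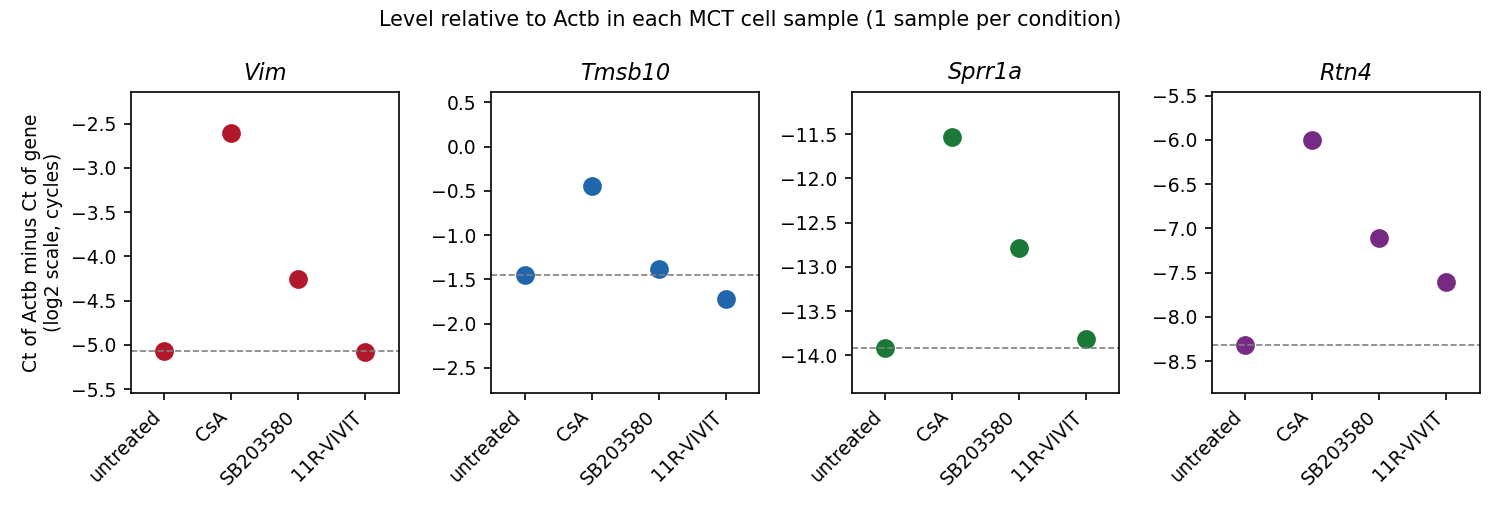
The vertical axis is the Ct of Actb minus the Ct of the gene, in cycles (a log2 scale, higher meaning more RNA), and each point is the single sample of a condition, with a dashed line at the untreated level. Every panel spans the same number of cycles. With Actb as the reference, CsA is the highest point for all 4 genes and SB203580 the next, while 11R-VIVIT stands clear above the line for Rtn4, at 0.71.

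Against untreated cells, 4 of the 4 genes were at least 2-fold higher with CsA, where 20.0% of the 80 array genes with a value were. Over the whole array, CsA gave 16 genes higher and 13 lower, or 8 and 18 relative to the array median. With SB203580, 2 of the 4 (Sprr1a and Rtn4) were, where 15.2% of 79 genes were. With 11R-VIVIT it was 0 of the 4, where 5.26% of 76 genes were. None of the 4 was as much lower with any treatment, where 16.2% of the array genes were in the CsA sample, 8.86% in the SB203580 sample and 3.95% in the 11R-VIVIT sample. These contrasts were in view when the genes were grouped and all share the untreated sample, so nothing is read from the shares. With CsA, Vim, Sprr1a and Rtn4 ranked 2, 3 and 4 of 80 from the highest change, below Angptl4 (5.14), a secreted inhibitor of lipoprotein lipase, with bounds placed at their value. These ranks are not settled, since Ugt1a6, a glucuronosyltransferase with a lower bound of 2.20, came to 2.57 without a Ct limit, and the 3 genes then ranked 3, 4 and 5 of 84. Tmsb10 ranked 16, between Aldh1a1 (1.02) and CCnd1 (0.95). With SB203580 the order turned to Rtn4 at rank 5 of 79, Sprr1a at 8, Vim at 18 and Tmsb10 at 46, or to 7, 10, 19 and 48 of 84 without a Ct limit. With 11R-VIVIT Rtn4 ranked 11 of 76, and the ranks of Sprr1a, Vim and Tmsb10 were 30, 37 and 56. Without a Ct limit, the 11R-VIVIT ranks of Rtn4, Sprr1a, Vim and Tmsb10 were 13, 34, 42 and 61 of 84. The median log2 change of the 4 genes was 2.35 for CsA, 0.97 for SB203580 and 0.045 for 11R-VIVIT, beside 0.15, 0.27 and -0.025 over all array genes with a value. No condition was repeated, so none of these differences has a replicate error or a test.

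**Figure D2:**
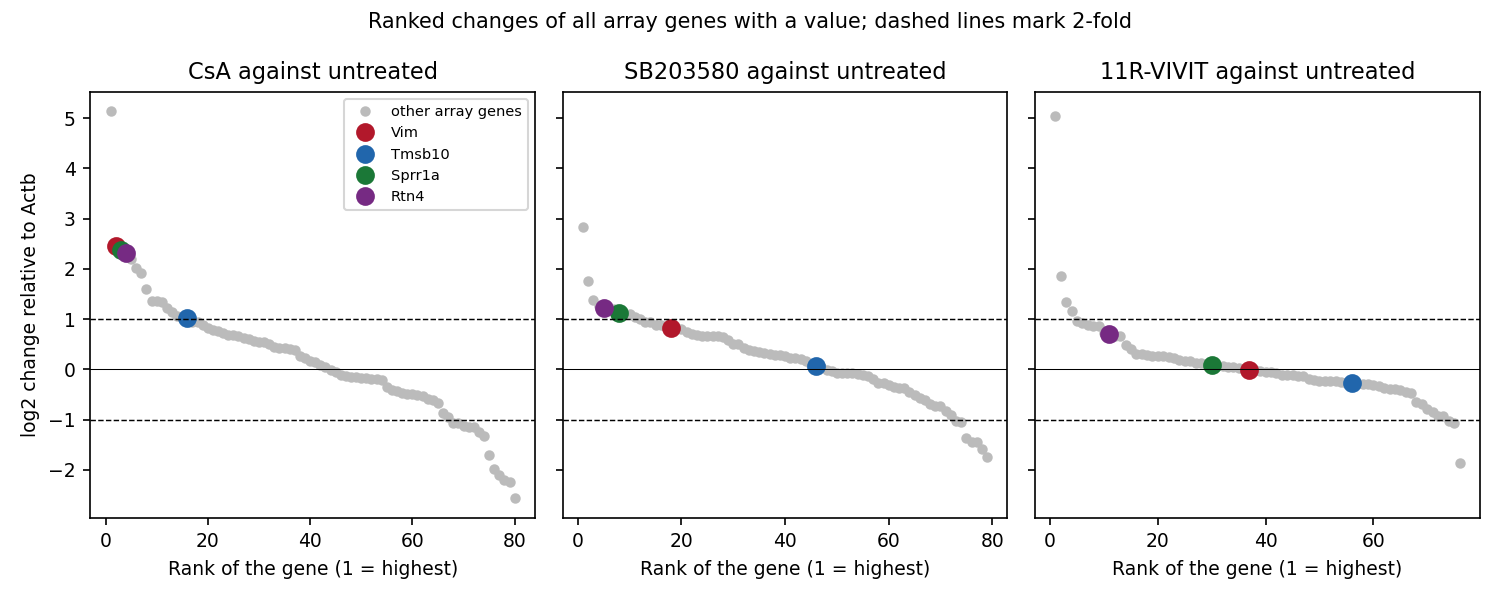
The vertical axis is the log2 change relative to Actb against untreated cells and the horizontal axis the rank of the gene, for all array genes with a value (80, 79 and 76), with bounds drawn at their value, so that ranks can shift by the bounds. With CsA, Vim, Sprr1a and Rtn4 lie next to each other near the top (2.47, 2.38 and 2.32) and Tmsb10 lies at the 2-fold line, while with 11R-VIVIT Rtn4 is the highest of the 4 at rank 11.

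Differences between the 4 genes within a treatment need no reference gene, since the Ct of Actb cancels. With CsA the log2 change of Vim exceeded that of Sprr1a by 0.089 and that of Rtn4 by 0.15, while it exceeded that of Tmsb10 by 1.45. The fold of Vim was thus 2.73 times that of Tmsb10, the other cytoskeletal gene. With SB203580 the change of Vim was 0.30 smaller than that of Sprr1a and 0.39 smaller than that of Rtn4, and it exceeded that of Tmsb10 by 0.75. With 11R-VIVIT Rtn4 stood apart, with a change 0.62 above that of Sprr1a, 0.72 above that of Vim and 0.98 above that of Tmsb10. The precision of a well is unknown here, so neighbours in these orders cannot be told apart by an error.

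Set directly against each other, the treated samples share no untreated sample. These values still come from the same 4 samples on which the genes were selected, so nothing is read from the shares here. Vim was 3.13-fold higher with CsA than with SB203580 (log2 difference 1.65), Sprr1a 2.39-fold (1.25), Rtn4 2.15-fold (1.10) and Tmsb10 1.92-fold (0.94). Of the 4 genes 3 passed 2-fold in this comparison, where 12.3% of 81 genes, the 4 included, did. Relative to the array median, the values of Sprr1a (0.91) and Rtn4 (0.76) no longer passed, while that of Vim stayed at 1.31. Between CsA and 11R-VIVIT all 4 passed 2-fold, where 22.8% of 79 genes did. The log2 difference was 2.47 for Vim, 2.28 for Sprr1a, 1.60 for Rtn4 and 1.28 for Tmsb10, the last being 0.75 relative to the array median. Between SB203580 and 11R-VIVIT, Sprr1a (1.03) passed 2-fold, where 13.8% of 80 genes did, and Vim (0.82), Rtn4 (0.50) and Tmsb10 (0.34) did not. Relative to the array median that of Sprr1a was 0.84, and with no reference gene that of Vim was 1.14. The doses were set for each compound and are not matched, so these differences hold for the doses used.

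Actb was the only housekeeping gene in the Ct table used here, and the choice of reference moved all values of a treatment together. Taking the array median in its place lowered every log2 change with CsA by 0.45 and with SB203580 by 0.11, and raised those with 11R-VIVIT by 0.083. Taking the mean of the 19 early genes lowered the CsA changes by 0.19 and the 11R-VIVIT changes by 0.12, and raised the SB203580 changes by 0.14. These 19 leave out the 4 genes described here, and they include Actb itself and Mt1a. Relative to Actb, the log2 change of Mt1a with 11R-VIVIT was 5.05. The early-gene values with 11R-VIVIT thus rest in part on Mt1a, and they were not recalculated without it. Over all settings, the CsA change lay between 2.02 and 2.74 for Vim, 1.93 and 2.65 for Sprr1a, 1.87 and 2.59 for Rtn4, and 0.57 and 1.29 for Tmsb10. The first 3 thus stayed above 2-fold with CsA, as did Sprr1a (1.01 to 1.43) and Rtn4 (1.10 to 1.52) with SB203580.

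**Figure D3:**
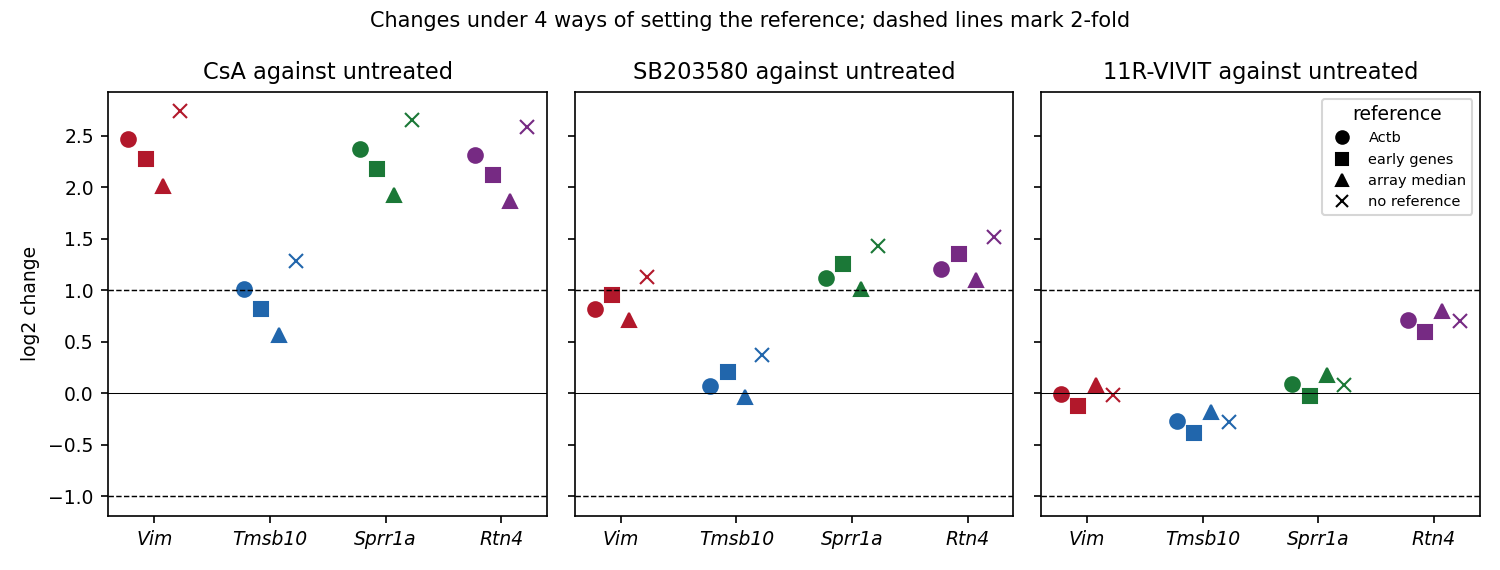
The vertical axis is the log2 change of each gene against untreated cells, and the symbols give the value relative to Actb, to the mean of 19 early genes, to the median of 65 array genes, and with no reference. For Tmsb10 with CsA the values straddle the 2-fold line (0.57 to 1.29), as do those of Vim with SB203580 (0.71 to 1.13), while Vim, Sprr1a and Rtn4 lie above it with CsA under all 4.

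All 4 genes were highest with CsA and next with SB203580 relative to Actb, an order that 10 of the 65 other genes detected in all samples also had (15.4%). Relative to the array median this order failed for Tmsb10, whose SB203580 value was then 0.037 log2 units under the untreated one (log2 change -0.037). Relative to Actb, Vim and Tmsb10 were lowest with 11R-VIVIT and Sprr1a and Rtn4 in untreated cells. Vim was lowest in untreated cells only relative to the array median (0.079 with 11R-VIVIT). Sprr1a was lowest with 11R-VIVIT only relative to the mean of early genes (-0.021), which include Mt1a. Likeness of 2 patterns was measured as the root mean square distance between their Ct values relative to Actb, each centred on its own mean over the 4 samples. By this measure the gene most like Vim among 68 was Sprr1a, at 0.15 cycles, followed by Rtn4 and by Gadd45a, a stress gene of growth arrest and DNA damage, each at 0.34. For Sprr1a it was Vim, followed by Gadd45a at 0.22 and Rtn4 at 0.27. For Rtn4 it was Gadd45a at 0.25, followed by Sprr1a and Vim. The median distance of the 68 genes was 1.005 cycles from Vim, 1.01 from Sprr1a and 0.91 from Rtn4, and it was smaller from Tmsb10, at 0.60. The genes most like Tmsb10 were others, namely Cyp2d4 at 0.12, Lcn2 (lipocalin-2, a marker of tubule injury) at 0.14 and Gstp1 (a glutathione transferase) at 0.145, and Vim came at place 29. These distances rest on 4 points each and share the Actb wells.

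Other genes of injury and repair on the array did not move as a block. Of 22 genes listed, 15 were on the array. With CsA 4 of them were at least 2-fold higher, namely Gadd45a (1.91), Lgals3 (galectin-3, 1.35), Tnfrsf12a (the receptor Fn14, 1.15) and Spp1 (osteopontin, 1.06). As much lower were 3, namely Havcr1 (the tubule injury marker KIM-1, -2.10), Cd24 (-1.12) and Cdkn1a (-1.06). These are 4 and 3 of 15, where 20.0% of the 80 array genes with a value were higher and 16.2% lower. The median log2 change of the 15 genes was 0.67, beside 0.15 over all array genes with a value. Relative to the array median, 1 of them was higher with CsA and the median was 0.22, and relative to the mean of early genes 2 were higher. No gene of this list had as large a change with CsA as Vim, Sprr1a or Rtn4. With SB203580 3 were higher and 2 lower with a median of -0.017 (0.29 with no reference gene), and with 11R-VIVIT 0 were higher and 2 lower with a median of -0.019. Cd24 was among the lower genes with both (-1.44 and -1.03). The array shares were 15.2% higher and 8.86% lower with SB203580 (median 0.27). They were 5.26% and 3.95% with 11R-VIVIT (median -0.025). Of the genes linked to nerve regeneration beside Sprr1a and Rtn4, Gadd45a and Spp1 were at least 2-fold higher with both CsA and SB203580, Cd44 was not (0.76 and -0.10), and Atf3, a stress transcription factor of injured neurons, had 0.24 for CsA, -0.61 for SB203580 and -1.87 for 11R-VIVIT. Atf3 thus lay under 2-fold with both treatments that raised Sprr1a and Rtn4 that far.

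Of 23 genes of the differentiated tubule, 10 were on the array, 9 of them with a value with CsA. With CsA 5 were at least 2-fold lower, among them the organic anion transporter gene Slc22a6 (-1.32) and the glutamine synthetase gene Glul (-2.57), and 2 were higher. Over the 80 array genes with a value, 16.2% were as much lower with CsA and 20.0% higher. The median of the list was -1.07, beside 0.15 over all array genes with a value. Except for Egf and Slc22a5, these tubule genes had an untreated Ct of 31.13 or later, and with a limit of 32 cycles the list median turned to 0.27. With no reference gene 2 of them were lower with CsA. With SB203580 1 was higher and 1 lower (median 0.55, or -0.15 with the limit of 32), and with 11R-VIVIT 0 were higher and 0 lower (median -0.03). The array shares were 15.2% higher and 8.86% lower with SB203580 (median 0.27). They were 5.26% and 3.95% with 11R-VIVIT (median -0.025).

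**Figure D4:**
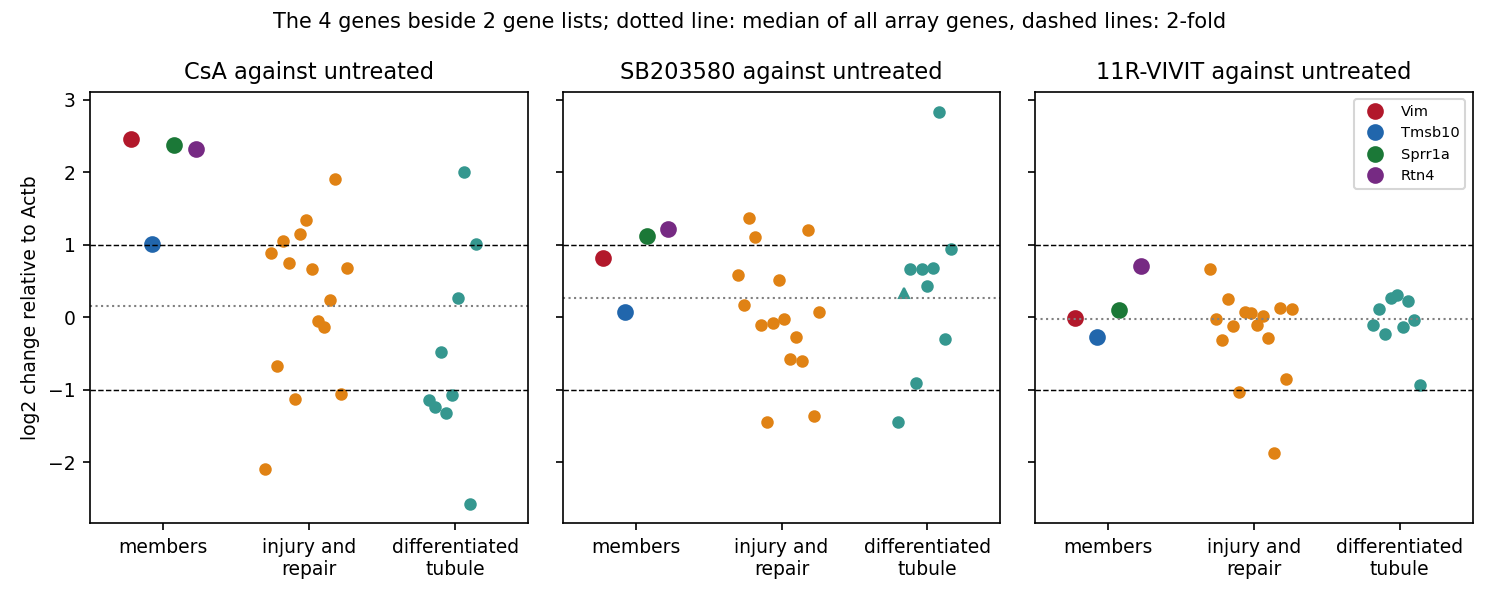
The vertical axis is the log2 change relative to Actb against untreated cells for Vim, Tmsb10, Sprr1a and Rtn4, for 15 injury and repair genes and for the differentiated tubule genes with a value, 1 point per gene, with a triangle for a lower bound and a dotted line at the median of all array genes. With CsA, Vim, Sprr1a and Rtn4 lie above every gene of both lists, while with SB203580 the 4 genes lie within the range of the lists, and with 11R-VIVIT Rtn4 (0.71) is the highest point.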

How the data were processed

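Total RNA of 4 MCT cell samples was reverse transcribed and run with SYBR green on an RT2 Profiler array for mouse nephrotoxicity. The authors deposited 1 raw Ct per gene and sample, with no normalization, and the instrument and threshold are not given in the sources used here. They also deposited fold changes against the untreated sample, which were not used. Samples were grouped by the treatment in the labels, and all sample columns of the Ct table were used. The log2 change was computed by the delta-delta Ct method with an amplification base of 2 and Actb as the reference. Values at or past 35 cycles were set to 35 and gave a bound, or no value where both samples reached it. Fgb and Fmo2 held the same Ct (33.6479) in the SB203580 sample, and whether this is a copying error is not known. Both are in the share of genes higher with SB203580 than with 11R-VIVIT, and Fgb is also in that against untreated cells. A gene counted as higher or lower at 2-fold. With 1 sample per condition no test was made, the number of samples limits the precision, and the depth behind a Ct is unknown. In a simulated array with no noise the known changes were returned, which checks the arithmetic and not the precision of a well. The genes, the lists and the rules were chosen with earlier results of these data known. Named beside the 4 genes are Actb, the 3 genes most like each, genes ranked next to them, list members past 2-fold, markers, and Cd44, Atf3, Slc22a5 and Fmo2, which were chosen after their values were seen. Of the tubule list, 1 gene is not reported here by itself, although it stays in the counts and medians. No gene of the podocyte marker list was on the array. Alternatives were 3 other reference settings, Ct limits, an amplification base of 1.9 and thresholds of 1.5-fold and 3-fold. Calculations used Python 3.11.15, numpy 2.4.6 and pandas 2.3.3, and figures matplotlib 3.10.9.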

Additional observations from a re-analysis of the deposited data

How the results depend on the processing

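Over 6 other settings, 144 log2 changes of the 4 genes were recalculated, of which 128 kept direction and 2-fold call, 10 no longer passed 2-fold, 3 newly passed it and 3 changed sign. Part of the 128 was fixed in advance. Every Ct of the 4 genes was under 35, so taking the limit away could alter none of their values. The limit of 32 could alter only those of Sprr1a against untreated cells. The changes of all 4 genes between CsA and untreated cells stayed above 0 throughout. The reference settings shift every gene of a treatment alike by construction, a base of 1.9 scales every change down, and a limit of 32 leaves fewer genes with a value. Beyond that the cause was not tested. No paired analysis was possible because each group holds 1 sample, and for the same reason no replicate could be left out. Late Ct values limit Sprr1a most, at 32.03 in untreated cells.

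With the array median as reference, Tmsb10 stood at 0.57 with CsA, -0.037 with SB203580 and 0.75 for CsA against 11R-VIVIT, and Vim with 11R-VIVIT at 0.079. For CsA against SB203580 it was 0.91 for Sprr1a and 0.76 for Rtn4, and for SB203580 against 11R-VIVIT 0.84 for Sprr1a. CsA then gave 8 array genes higher and 18 lower, and 11R-VIVIT 6 higher and 1 lower. Of the injury and repair genes 1 was higher with CsA and 1 lower with 11R-VIVIT, with a median of 0.064 with the latter. Of the differentiated tubule genes 1 was higher with CsA and 2 lower with SB203580, and the 11R-VIVIT median was 0.052.

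Relative to the mean of early genes, Tmsb10 with CsA was 0.82, Sprr1a with 11R-VIVIT -0.021, and for CsA against SB203580 Sprr1a was 0.92 and Rtn4 0.77. Vim for SB203580 against 11R-VIVIT was 1.07. With SB203580 16 array genes were higher and 5 lower, beside 12 and 7 with Actb, and with 11R-VIVIT 4 were higher and 5 lower, beside 4 and 3. Of the injury and repair genes 2 were higher with CsA, and their SB203580 median was 0.12. Of the tubule genes 1 was higher with CsA, 2 were higher with SB203580 and 1 was lower with 11R-VIVIT. The 11R-VIVIT values under this reference rest in part on Mt1a, an early gene with a change of 5.05 relative to Actb.

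With no reference gene, Vim was 1.13 with SB203580 and 1.14 for SB203580 against 11R-VIVIT. CsA gave 22 array genes higher and 7 lower, and SB203580 22 higher and 5 lower. Of the injury and repair genes 1 was lower with CsA, and their SB203580 median was 0.29. Of the tubule genes 2 were lower with CsA, with a median of -0.79, and 2 were higher with SB203580.

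With a limit of 32 cycles, 8 array genes were lower with CsA and 1 was higher with 11R-VIVIT. Of the tubule genes 1 was lower with CsA, and the tubule medians were 0.27 (CsA) and -0.15 (SB203580). Without any limit, 2 tubule genes were higher with SB203580, and the 11R-VIVIT median was 0.041. With a base of 1.9, Tmsb10 with CsA was 0.94 and Sprr1a for SB203580 against 11R-VIVIT 0.95. With 11R-VIVIT 1 array gene was then lower, and 1 of the injury and repair genes. The tubule genes had 1 higher with CsA and a CsA median of -0.99.

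At 1.5-fold, 28 array genes were higher with CsA, 29 higher and 13 lower with SB203580, and 13 higher and 9 lower with 11R-VIVIT. Of the 4 genes 1 (Rtn4) was then higher with 11R-VIVIT. Of the injury and repair genes 8 were higher with CsA and 1 with 11R-VIVIT. Of the tubule genes 5 were higher and 2 lower with SB203580, and 1 was lower with 11R-VIVIT. At 3-fold, 8 array genes were higher and 6 lower with CsA, 2 higher and 1 lower with SB203580, and 2 higher and 1 lower with 11R-VIVIT. Of the 4 genes 0 were then higher with SB203580. Of the injury and repair genes 1 was higher and 1 lower with CsA, 0 were higher and 0 lower with SB203580, and 1 was lower with 11R-VIVIT. Of the tubule genes 1 was higher and 1 lower with CsA, and 0 were lower with SB203580. These counts follow from the threshold.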
